A study of Mus musculus with 2 samples.

Results

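The respiratory chain genes described here are the protein-coding genes of the mouse nuclear genome whose symbols mark them as parts of the 5 complexes of mitochondrial respiration. They were chosen from the GENCODE M21 annotation of GRCm38 by symbols that begin with Nduf (complex I), Uqcr (complex III), Cox4 to Cox8 (complex IV) or Atp5 (complex V), together with Sdha, Sdhb, Sdhc and Sdhd (complex II). The rule found 94 of 21938 nuclear protein-coding genes, with 46 in complex I, 4 in complex II, 8 in complex III, 18 in complex IV and 18 in complex V. The symbol Atp5o belongs to 2 overlapping gene records, so the 94 records carry 93 symbols. The rule reads symbols only, so it takes in assembly factors and a few genes of other function, leaves out Cyc1, and puts Ndufa4, now known as a subunit of complex IV, with complex I.

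Complexes I to IV pass electrons from NADH and succinate to oxygen and, except for complex II, pump protons across the inner mitochondrial membrane, and complex V uses the proton gradient to make ATP. The subunits encoded in the nucleus are made in the cytosol and assembled with those encoded by mitochondrial DNA. Most of these genes are used in nearly every cell, and they are known to rise as fat cells mature and in thermogenic fat. TET2 is a dioxygenase that oxidises 5-methylcytosine in CpG dinucleotides to 5-hydroxymethylcytosine, and it has no DNA-binding domain of its own.

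TET2 occupancy was measured by chromatin immunoprecipitation and sequencing in adipocytes made in culture from passage 3 adipose-derived stem cells (ASCs) of mouse inguinal white adipose tissue, differentiated with IBMX, dexamethasone and insulin and then kept in insulin. The data are 1 TET2 library and 1 input library, from cells of 1 kind, with no treatment, no genotype comparison and no replicate, and the labels give neither the strain nor the number of mice. Only the list of 14103 peaks was used, with an interval and a value of the authors' peak caller, read as −log10 p, for each peak, so the depth behind a value is unknown, no difference could be tested over samples, and the cell type could not be checked against marker genes. A gene was counted as having a promoter peak when the midpoint of a peak lay within 1 kb of any annotated transcription start site (TSS). Unless stated otherwise, intervals in parentheses are exact 95% binomial intervals, which cover counting error only, because genes are not replicates of a condition.

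The promoters below show the letters that TET2 acts on, with every CpG dinucleotide in capitals. The first 4 belong to the genes with the largest −log10 p in complexes V, I, III and IV. The last 2 carry no peak: Sdhb, the iron-sulfur subunit of complex II, and Cox8b, an isoform of complex IV used in heart, muscle and brown fat. Each runs 5′ to 3′ on the strand of its gene, from 250 bases before to 50 bases after the start that RefSeq gives on GRCm38.p6. The lines are Atp5s (RefSeq symbol Dmac2l) at chr12:69724695-69724994 on the plus strand, Ndufa10 at chr1:92473709-92474008 on the minus strand, Uqcrfs1 at chr13:30545267-30545566 on the minus strand, Cox5b at chr1:36691237-36691536 on the plus strand, Sdhb at chr4:140961021-140961320 on the plus strand and Cox8b at chr7:140900397-140900696 on the minus strand.
Atp5s: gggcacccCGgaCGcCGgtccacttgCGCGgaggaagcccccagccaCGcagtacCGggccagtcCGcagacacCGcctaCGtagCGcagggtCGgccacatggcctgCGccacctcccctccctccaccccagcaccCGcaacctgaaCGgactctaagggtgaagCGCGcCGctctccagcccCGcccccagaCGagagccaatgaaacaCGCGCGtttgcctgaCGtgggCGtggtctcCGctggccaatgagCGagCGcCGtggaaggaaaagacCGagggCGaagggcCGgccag
Ndufa10: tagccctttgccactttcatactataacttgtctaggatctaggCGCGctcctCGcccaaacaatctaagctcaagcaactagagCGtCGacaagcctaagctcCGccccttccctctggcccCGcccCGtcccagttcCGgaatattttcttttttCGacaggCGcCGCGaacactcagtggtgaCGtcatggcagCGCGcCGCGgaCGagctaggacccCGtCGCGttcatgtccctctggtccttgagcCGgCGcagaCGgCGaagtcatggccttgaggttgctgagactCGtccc
Uqcrfs1: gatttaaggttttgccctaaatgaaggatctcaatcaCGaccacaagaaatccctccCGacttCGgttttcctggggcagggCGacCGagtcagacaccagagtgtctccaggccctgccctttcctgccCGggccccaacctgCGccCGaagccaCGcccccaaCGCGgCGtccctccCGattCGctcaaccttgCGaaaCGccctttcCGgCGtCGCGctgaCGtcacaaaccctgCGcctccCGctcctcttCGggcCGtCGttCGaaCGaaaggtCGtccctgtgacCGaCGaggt
Cox5b: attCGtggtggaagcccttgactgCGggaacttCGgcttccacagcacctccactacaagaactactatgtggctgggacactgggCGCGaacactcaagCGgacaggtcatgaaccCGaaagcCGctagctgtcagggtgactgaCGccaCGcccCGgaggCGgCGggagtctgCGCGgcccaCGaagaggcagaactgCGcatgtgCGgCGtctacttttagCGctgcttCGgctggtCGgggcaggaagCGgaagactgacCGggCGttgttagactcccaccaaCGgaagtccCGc
Sdhb: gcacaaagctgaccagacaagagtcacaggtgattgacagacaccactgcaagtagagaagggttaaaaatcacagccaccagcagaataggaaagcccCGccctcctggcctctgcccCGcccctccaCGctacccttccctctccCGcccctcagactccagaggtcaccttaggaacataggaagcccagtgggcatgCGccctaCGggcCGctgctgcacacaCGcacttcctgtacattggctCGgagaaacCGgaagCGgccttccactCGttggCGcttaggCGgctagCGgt
Cox8b: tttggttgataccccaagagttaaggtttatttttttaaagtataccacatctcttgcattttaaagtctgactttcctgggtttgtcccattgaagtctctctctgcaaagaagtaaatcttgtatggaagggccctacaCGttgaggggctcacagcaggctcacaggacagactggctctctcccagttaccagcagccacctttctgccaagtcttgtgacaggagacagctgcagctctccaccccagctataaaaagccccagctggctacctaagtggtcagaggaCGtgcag

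The Atp5s window has 32 CpG dinucleotides in 300 bases and lies wholly inside its TET2 peak. The windows of Ndufa10, Uqcrfs1 and Cox5b have 27, 31 and 27 CpG dinucleotides, and the peak covers their last 153, 272 and 128 bases. Sdhb has 15 CpG dinucleotides and no peak, and Cox8b has 2, both shown in the last line. CpG content therefore differed widely among the members, and the shares below are set beside those of promoters of like CpG content.

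TET2 peaks lay at the promoters of 22 of the 94 respiratory chain genes, or 23.4% (15.3 to 33.3%). They are the complex I genes Ndufa10, Ndufa13, Ndufab1, Ndufaf2, Ndufaf8, Ndufb6, Ndufb9, Ndufc1 and Ndufv2, the complex III genes Uqcrfs1 and Uqcrq, the complex IV genes Cox4i1, Cox5a, Cox5b, Cox7a2l and Cox7c, and the complex V genes Atp5c1, Atp5e, Atp5f1, Atp5j, Atp5l and Atp5s. The background over all 21938 nuclear protein-coding genes was 24.5%, so the plain share of the respiratory chain genes was close to that of the genome. Their promoters, however, were richer in CpG than most. The CpG ratio, the observed over the expected number of CpG dinucleotides within 500 bp each side of the main TSS, had a median of 0.721 in the members and 0.557 in all coding genes.

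Other coding genes with a CpG ratio inside the range of the members (0.282 to 0.947, the 5th to 95th percentiles) had a promoter peak in 32.3% of 13918 cases. The other coding genes were divided into 20 groups by CpG ratio and weighted as the members fall into them. By this weighting 33.8% had one (33.0 to 34.7%, an approximate 95% interval from the standard error). That would be 31.8 of 94 genes where 22 were counted. The CpG-standardised share lies just above the interval of the members, but this was not stable. It fell inside the interval in 7 of 11 other settings for peaks, TSSs and members, among them the main TSS only (29.8%) and each peak counted only for its nearest gene (29.4%, with 22.3% of members). It also did so in 2 of 6 other ways of standardising, among them GC content in place of the CpG ratio (27.9%). Within 3 kb of a TSS, 24 members (25.5%, 17.1 to 35.6%) had a peak, against 28.5% of all coding genes and 38.1% after CpG standardisation.

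**Figure D1:**
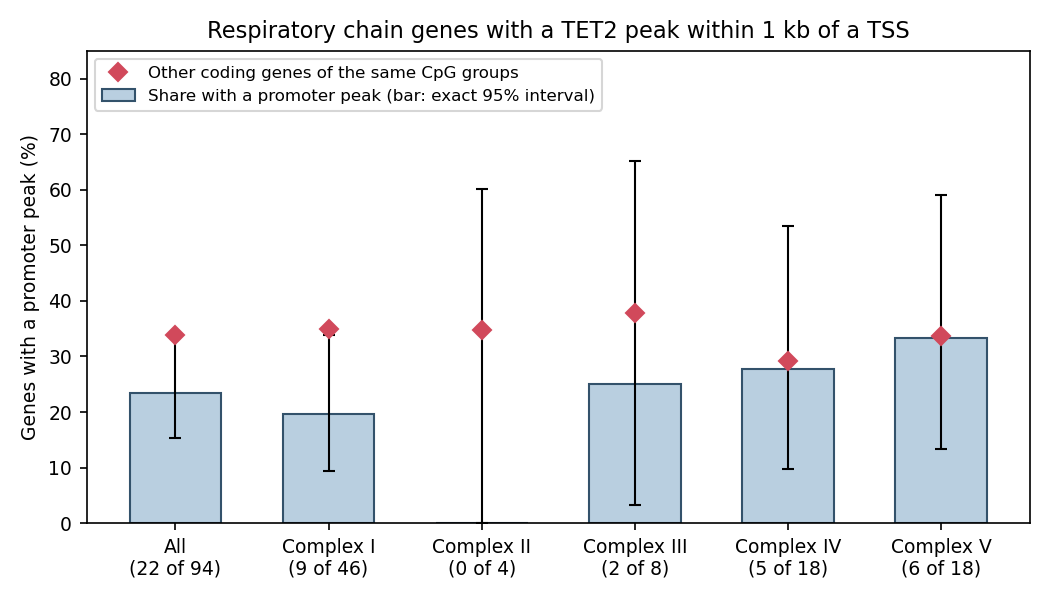
Percentage of respiratory chain genes with a TET2 peak midpoint within 1 kb of a TSS (bars, exact 95% intervals), for all 94 genes and by complex, and of other coding genes of the same CpG groups (diamonds). The bars rise from 0 of 4 genes in complex II to 33.3% in complex V, and the diamond lies above the interval for all genes and for complex I only.

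Complex I is the NADH dehydrogenase through which most electrons enter the chain, and 9 of its 46 genes had a promoter peak (19.6%, 9.36 to 33.9%). Coding genes of the same CpG groups had one in 35.0%, which would be 16.1 genes, but the standardised share was inside the interval, at 30.4%, when each peak was counted only for its nearest gene. Of the 7 nuclear core subunits, those that carry the flavin and the iron-sulfur clusters, Ndufv2 had a peak. The share was 14.3% (0.361 to 57.9%), and Ndufs1, Ndufs3, Ndufs7, Ndufs8 and Ndufv1 were among those without a peak. Among the other subunits 6 of 30 had a peak (interval 7.71 to 38.6%), and among the assembly factors, which build the complex without staying in it, 2 of 8 did (interval 3.19 to 65.1%). The intervals of these 3 classes overlap throughout.

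The strongest complex I peak was at Ndufa10, an accessory subunit, on chr1:92473318-92473861. Its −log10 p was 11.5, a value that 4.32% of all coding promoter peaks exceeded, and its midpoint lay in an intron, 158 bp downstream of the nearest TSS. Ndufb6, an accessory subunit of the membrane arm, had a peak on chr4:40279121-40279505 with a −log10 p of 9.27, centred on coding exon 1 at 96 bp downstream. Ndufa13, an accessory subunit also known as GRIM-19 for its part in cell death, had one on chr8:69902326-69902937 with a −log10 p of 8.44. That midpoint had an offset of −73 bp, upstream of Ndufa13, and TSSs of Yjefn3 and Tssk6 lie within 1 kb of it as well.

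The remaining complex I peaks had values below the median of all coding promoter peaks. The core subunit Ndufv2, which carries an iron-sulfur cluster in the NADH-binding part, had a peak on chr17:66101131-66101887 centred on a TSS (0 bp) with a −log10 p of 6.80. The assembly factor Ndufaf2 had the same −log10 p of 6.80, at chr13:108158125-108158623. Its main TSS stands head to head with that of Ercc8, a DNA repair gene, 115 bp away. Ndufab1, the mitochondrial acyl carrier protein that also serves fatty acid synthesis, reached 6.36 on chr7:122101705-122102140, and Ndufc1, a small accessory subunit, 5.19 on chr3:51408614-51408988. Ndufb9, an accessory subunit of the membrane arm, reached 5.07 on chr15:58933549-58933966, and its main TSS stands 26 bp from that of Tatdn1. The lowest value of all members, 4.56, was that of the assembly factor Ndufaf8 on chr11:120098857-120099393. The main TSSs of Ndufaf8 and Tepsin lie 197 bp apart.

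**Figure D2:**
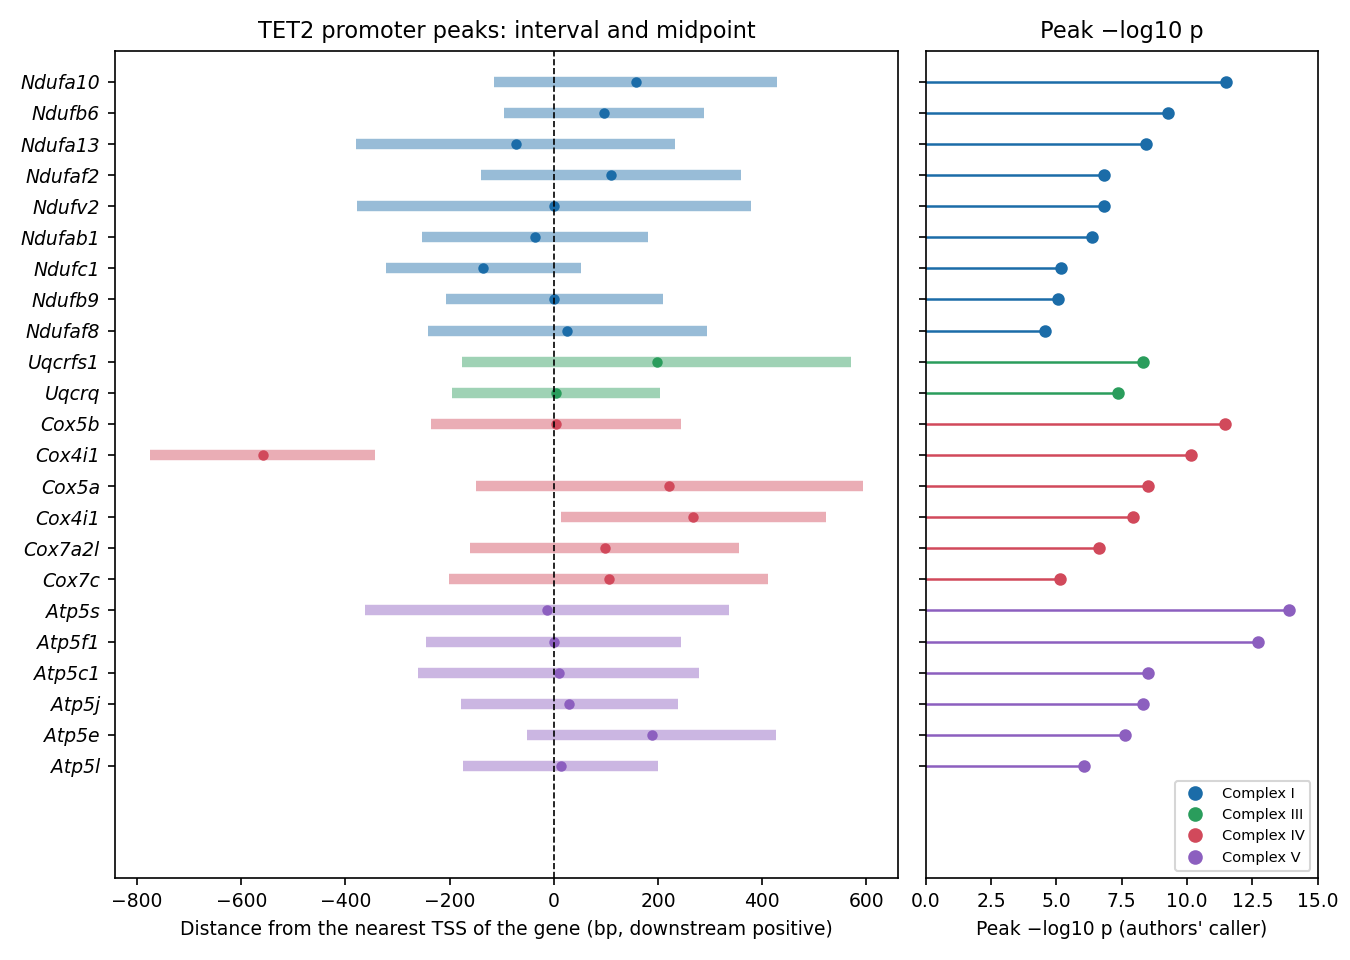
Left, interval (bar) and midpoint (dot) of each of the 23 TET2 promoter peaks of respiratory chain genes, in bp from the nearest TSS of the gene with downstream positive. Right, the −log10 p of the same peak. Midpoints lie between −559 and 268 bp, and the 5 peaks at a −log10 p of 10 or more are those of Atp5s, Atp5f1, Ndufa10, Cox5b and Cox4i1, which has 2 peaks.

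Complex II, succinate dehydrogenase, is the one complex encoded wholly in the nucleus, and none of its 4 genes had a promoter peak. A count of 0 of 4 allows a share of up to 60.2%, so no difference from the CpG-standardised 34.7% was detectable. The flavin subunit gene Sdha had the nearest peak, 7074 bp from a TSS. For Sdhb, the iron-sulfur subunit shown above, that distance was 40508 bp. The membrane anchors Sdhc and Sdhd had their nearest peaks 45344 and 13189 bp away. Their CpG ratios of 0.781, 0.636, 0.601 and 0.780 (Sdha to Sdhd) fall in the range in which 31.5% of other coding genes had a peak.

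Complex III passes electrons from ubiquinol to cytochrome c, and 2 of its 8 genes had a promoter peak (interval 3.19 to 65.1%, CpG-standardised share 37.8%). Uqcrfs1, the Rieske iron-sulfur subunit, had a peak of 748 bp on chr13:30544791-30545538 with a −log10 p of 8.32. Its promoter, printed above, had the highest CpG ratio of all members at 1.04. Uqcrq, a small subunit, had a peak on chr11:53430230-53430629 with a −log10 p of 7.34. Its midpoint lay 5 bp downstream of the nearest Uqcrq TSS and 398 bp downstream of the main TSS. The peak does not cover that main TSS, and a TSS of Gdf9 lies within 1 kb of its midpoint. The large core proteins Uqcrc1 and Uqcrc2 had none, with the nearest peak 8562 and 37261 bp away, and neither did Uqcrb or Uqcr10, at 27743 and 41798 bp. Uqcrh, the hinge protein that helps cytochrome c dock, had a peak just outside the window, 1245 bp from a TSS with a −log10 p of 4.95.

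Complex IV, cytochrome c oxidase, hands the electrons to oxygen. Of its 18 genes 5 had a promoter peak (27.8%, 9.69 to 53.5%), against 29.1% after CpG standardisation. Cox4i1, Cox5a and Cox5b, the larger of the subunits encoded in the nucleus, all had peaks. Cox5b, the zinc-binding subunit, had a peak on chr1:36691409-36691888 with a −log10 p of 11.5. Its midpoint lay in coding exon 1, 4 bp downstream of the nearest Cox5b TSS and 199 bp downstream of the main TSS. No other coding gene starts within 1 kb. Cox5a had a peak of 743 bp on chr9:57521184-57521926 with a −log10 p of 8.52, centred 222 bp downstream of the nearest TSS.

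Cox4i1, the regulatory subunit to which ATP binds, was the one member with 2 promoter peaks. The peak on chr8:120667447-120667879 had a −log10 p of 10.1 and an offset of −559 bp, upstream of the nearest Cox4i1 TSS, and that on chr8:120668349-120668859 had a −log10 p of 7.94 and an offset of 268 bp. Cox4i1 stands head to head with Emc8, 101 bp apart, and for both peaks the nearest TSS was that of Emc8, so the peaks cannot be given to one gene of the pair. The other complex IV peaks were lower. Cox7a2l, which joins complexes III and IV into supercomplexes, had a −log10 p of 6.63 on chr17:83513974-83514491, and the small subunit Cox7c one of 5.13 on chr13:86046362-86046976.

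The 7 complex IV isoforms used in few tissues had no promoter peak (0%, up to 41.0%): Cox4i2 of lung, Cox6a2, Cox7a1 and Cox8b of muscle, and Cox6b2, Cox7b2 and Cox8c of testis. Their promoters were poor in CpG, with a median ratio of 0.379, and the CpG-standardised share was 16.2%, or 1.13 genes. Cox7a1 and Cox8b are known as genes of thermogenic fat, and their nearest peaks were 62196 and 42780 bp away. The distances were 17687 bp for Cox4i2, 46492 bp for Cox6a2, 5977 bp for Cox6b2, 7676 bp for Cox7b2 and 128819 bp for Cox8c. Ndufa4l2, a relative of Ndufa4 that is induced in low oxygen, had the lowest CpG ratio of all members at 0.186 and no peak within 19203 bp.

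Complex V, the ATP synthase, had the highest share of the 5 complexes, with 6 of 18 genes (33.3%, 13.3 to 59.0%) against 33.7% after CpG standardisation, and its interval overlaps those of the other four. Of the 5 subunits of the F1 sector, the part that makes ATP, Atp5c1 and Atp5e had a peak, and Atp5a1, Atp5b and Atp5d had none. The nearest peaks of Atp5a1 and Atp5b were 14677 and 47496 bp away. Of the 12 genes of the membrane and stalk sector 3 had one (interval 5.49 to 57.2%), namely Atp5f1, Atp5j and Atp5l.

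The largest −log10 p of all respiratory chain genes, 13.9, was at Atp5s on chr12:69724588-69725286. Atp5s encodes a protein once named as a coupling factor of the synthase and is not one of its standing subunits. The peak was 699 bp long and centred at −13 bp from the TSS, it ranked 172 among all 14103 peaks, and 1.18% of coding promoter peaks had a larger value.

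Atp5f1, subunit b of the stator stalk, had the next largest value, 12.7, on chr3:105959032-105959521. That peak sat on an alternative TSS (0 bp) in exon 2, in the 5′ untranslated region, and 823 bp downstream of the main TSS. A TSS of Wdr77 also lies within 1 kb. Atp5c1, the gamma subunit that turns inside F1, had a −log10 p of 8.52 on chr2:10080044-10080583. Its main TSS stands head to head with that of Kin, 114 bp away.

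Atp5j, coupling factor 6 of the stalk, had a −log10 p of 8.32 on chr16:84835265-84835682. The same peak lies within 1 kb of a TSS of Gabpa, the DNA-binding subunit of a nuclear factor known to act on respiratory chain genes. Atp5e, the epsilon subunit of the central stalk, had 7.63 on chr2:174463622-174464100, and Atp5l, subunit g of the membrane sector, 6.04 on chr9:44920507-44920881. Atp5f1, Atp5c1 and Atp5j thus share their peaks with a neighbouring gene, while Atp5e and Atp5l have no other coding start within 1 kb.

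The 23 peaks at respiratory chain genes had −log10 p values from 4.56 to 13.9 with a median of 7.94, and the 5142 other coding promoter peaks had a median of 6.82. Of the 23, 14 exceeded the median of all coding promoter peaks. At a −log10 p of 10 or more stood 5 of 23 (21.7%, 7.46 to 43.7%), against 549 of 5165 coding promoter peaks (10.6%). The order of the shares turned with this threshold: 13.8% of the members (7.57 to 22.5%) had a peak of at least 7, against 16.3% after CpG standardisation, and 5.32% (1.75 to 12.0%) one of at least 10, against 3.62%. Both standardised shares lie inside the intervals, so neither order exceeds counting error. Complex I lost most at the threshold of 7, where 3 of 46 genes (6.52%, 1.37 to 17.9%) were left, Ndufa10, Ndufb6 and Ndufa13, against 16.9% after CpG standardisation.

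The peaks sat close to the TSSs. Midpoints had a median offset of 13 bp downstream of the nearest TSS of the gene (range −559 to 268 bp), against 86 bp for other coding promoter peaks, and 197 bp when only the main TSS of each gene was used. Of the 23 peaks 20 had the midpoint within 200 bp, 21 covered a TSS of the member and 18 covered its main TSS. Midpoints at or downstream of the TSS made up 78.3%, against 67.3% elsewhere. By the annotation, 7 midpoints fell in a 5′ untranslated region, 5 in a coding exon, 7 in an intron and 4 upstream. Peak lengths ran from 375 to 757 bp with a median of 499 bp, against 467 bp at other coding promoters.

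Neighbouring genes limited how far a peak could be given to a member. Another coding gene had a TSS within 1 kb of 11 of the 23 peaks, 1 further peak had a noncoding gene, and 11 had no other gene. Of the 94 genes, 22 have a coding partner that starts within 1 kb on the opposite strand and points away, and 6 of these had a peak (27.3%, 10.7 to 50.2%): Atp5c1, Atp5s, Cox4i1, Ndufaf2, Ndufaf8 and Ndufb9. Other coding genes with such a partner had one in 35.2%. Other coding genes of the same CpG groups, with or without a partner, had one in 37.9%. Among the 16 pairs without a peak were Ndufa7 and Rps28, 10 bp apart, Sdha and Ccdc127, 29 bp apart, and Sdhd and Timm8b, 98 bp apart. The 72 members without a partner had a peak in 22.2% (13.3 to 33.6%), against 23.7% of other coding genes without one and 32.6% after CpG standardisation.

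CpG ratio separated members with and without a peak in the direction seen in the genome. It had a median of 0.786 in the 22 with a peak and 0.700 in the 72 without, with ranges that overlapped (0.457 to 1.04 and 0.186 to 0.962). In other coding genes the medians were 0.745 and 0.416. None of the 7 members with a ratio under 0.4 had a peak, against 7.62% of other coding genes there. Between 0.4 and 0.8, 13 of 64 members had one (20.3%, 11.3 to 32.2%), against 31.5%, and at 0.8 or more 9 of 23 did (39.1%, 19.7 to 61.5%), against 44.0%. The members below 0.4 were Ndufa4l2, Atp5j2, Cox8b, Cox6a2, Cox7a1, the second Atp5o record and Cox4i2. At the other end, Uqcrfs1, Cox4i1 and Cox5a had a peak, with ratios of 1.04, 0.998 and 0.963, and Cox6a1 and Ndufs7 had none, with 0.962 and 0.957.

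**Figure D3:**
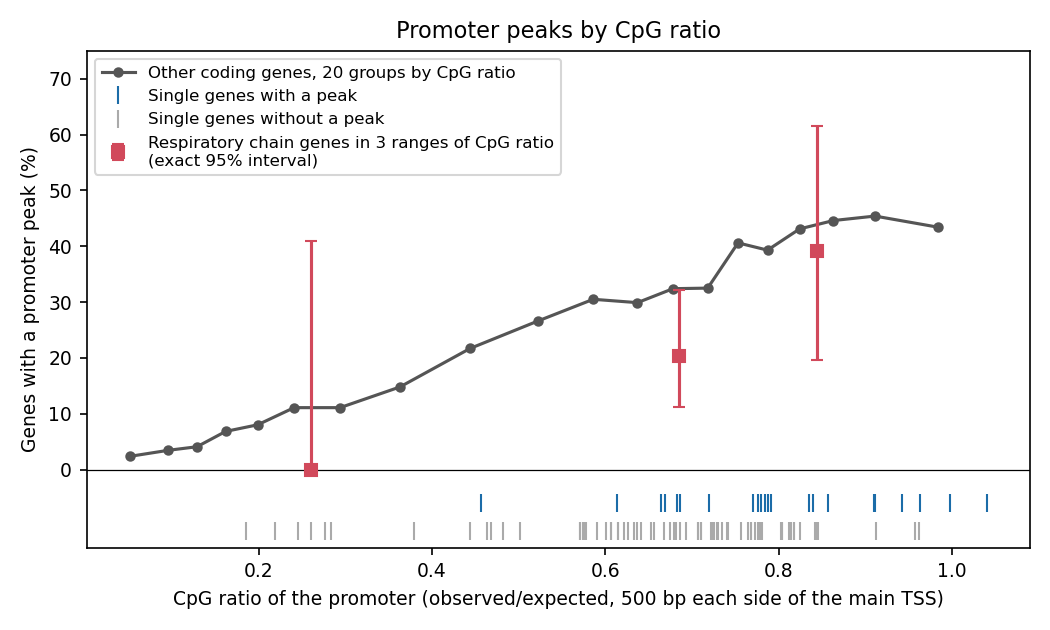
Percentage of genes with a promoter peak against the CpG ratio of the promoter, for other coding genes in 20 groups (dots and line) and for respiratory chain genes in 3 ranges (squares, exact 95% intervals). Ticks below 0 mark single members with and without a peak. The middle square, at 20.3%, lies under the line, which was 31.5% over that range.

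Of the 72 members without a promoter peak, 70 had none within 3 kb. The other two were Uqcrh, given above, and Ndufs7, a core subunit whose nearest peak was 1499 bp from a TSS with a −log10 p of 5.07. A further 11 had a peak at 3 to 10 kb, and for 59 the nearest was over 10 kb away. For 10 members it was over 100 kb away, among them the core subunit Ndufs1 at 188469 bp and Ndufa4 at 319090 bp, the farthest. The median was 29400 bp, against 41940 bp for other coding genes without a promoter peak. The core subunits Ndufs3, Ndufs8 and Ndufv1 were 12654, 17958 and 20768 bp from a peak. Inside gene bodies and beyond 1 kb of the gene's own TSSs, peaks were found in Ndufaf2, Ndufs7 and the second Atp5o record. Whether other genes start near these peaks was not examined. All 3 members on the X chromosome, Ndufa1, Ndufb11 and Cox7b, lacked a peak, on a chromosome where 6.96% of 948 coding genes had one.

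Motifs of factors named for respiratory chain genes were searched as exact letters on both strands, from 250 bp upstream to 50 bp downstream of the main TSS, and no motif contains another. A match describes the sequence only. The motif of NRF1, a regulator of many nuclear genes for mitochondria (CGCANGCGC), was in 21 of 94 member promoters (22.3%, 14.4 to 32.1%), against 8.64% of all coding promoters and 12.7% after CpG standardisation. It was found in 2 of the 22 members with a TET2 peak (9.09%, 1.12 to 29.2%) and in 19 of the 72 without (26.4%, 16.7 to 38.1%). In other coding genes the order was the opposite, 12.2% with and 7.41% without a peak. The intervals of the members overlap. Ndufa13 and Atp5l are the members with both the NRF1 motif and a peak, and both Atp5g3 and Atp5h, a subunit of the rotor ring and one of the stalk, have the motif and no peak.

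The ETS motif CCGGAAG, which GABPA and related factors bind, was in 17 member promoters (18.1%, 10.9 to 27.4%, against 11.0% of all and 16.4% after CpG standardisation). It was in 6 of 22 with a peak (27.3%, 10.7 to 50.2%) and 11 of 72 without (15.3%, 7.88 to 25.7%). Sdhb is not among them, since its main TSS in GENCODE differs from the RefSeq start, but its RefSeq window printed above has the motif starting at base 6 after the start. The YY1 motif AAGATGGCG was in 5 promoters (5.32%, against 1.79% of all), 1 of them with a peak, that of Ndufaf8. The ERR motif TCAAGGTCA was in 2 (2.13%, against 0.483%), neither with a peak. One or more of the NRF1, ETS and YY1 motifs stood in 36 members (38.3%, against 19.2% of all and 28.4% after CpG standardisation), in 31.8% of those with a peak and 40.3% of those without.

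The SP1 motif GGGCGG was the most frequent, in 43 members (45.7%, 35.4 to 56.3%), against 43.9% of all coding promoters and 63.2% after CpG standardisation. It stood in 14 of 22 with a peak (63.6%, 40.7 to 82.8%) and 29 of 72 without (40.3%, 28.9 to 52.5%), and other coding genes split in the same way, 62.6% and 37.8%. Within 100 bp of the peak midpoints it was in 13 of 23 windows (56.5%), against 47.0% at other coding promoter peaks. Members with an SP1 match and a peak include Atp5s, Ndufa10, Cox4i1 and Cox5a, and Cox5b has a peak with none of the motifs searched.

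The NF-Y motif CCAAT was in 37 members (39.4%, against 38.9% of all), with 31.8% (13.9 to 54.9%) and 41.7% (30.2 to 53.9%) in those with and without a peak. The C/EBP motif TTNNGCAA was in 13 (13.8%, against 10.4%), 1 of 22 with a peak (4.55%, 0.115 to 22.8%) and 12 of 72 without (16.7%, 8.92 to 27.3%). Within 100 bp of the member peak midpoints C/EBP had no match in 23 windows, against 2.57% at other coding promoter peaks. A share that small would often leave 23 windows without a match, so no difference can be read from this count. The AP-2 motif GCCNNNGGC was in 11 (11.7%, against 18.5% of all and 23.9% after CpG standardisation), 3 with a peak and 8 without. The cAMP response element TGACGTCA was in 5 (5.32%, against 2.43%), 2 with a peak and 3 without.

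The motif shares depended on the window. Within 500 bp each side of the main TSS, AP-2 stood in 43.6% of the members and 44.2% of all coding promoters, so the lower share of the short window was not seen, and NF-Y turned lower, at 58.5% against 70.6%. SP1 rose to 74.5% against 60.6%, and C/EBP to 35.1% against 29.5%. The wide window was set beside all coding promoters only, without CpG standardisation. In the short window the SP1 share of the members, 45.7%, was under the CpG-standardised 63.2%. NRF1, ETS and ERR stayed above all coding promoters, at 33.0% against 13.1%, 31.9% against 19.2% and 9.57% against 1.85%, as did YY1, in 15 of 94 members against 3.67%.

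**Figure D4:**
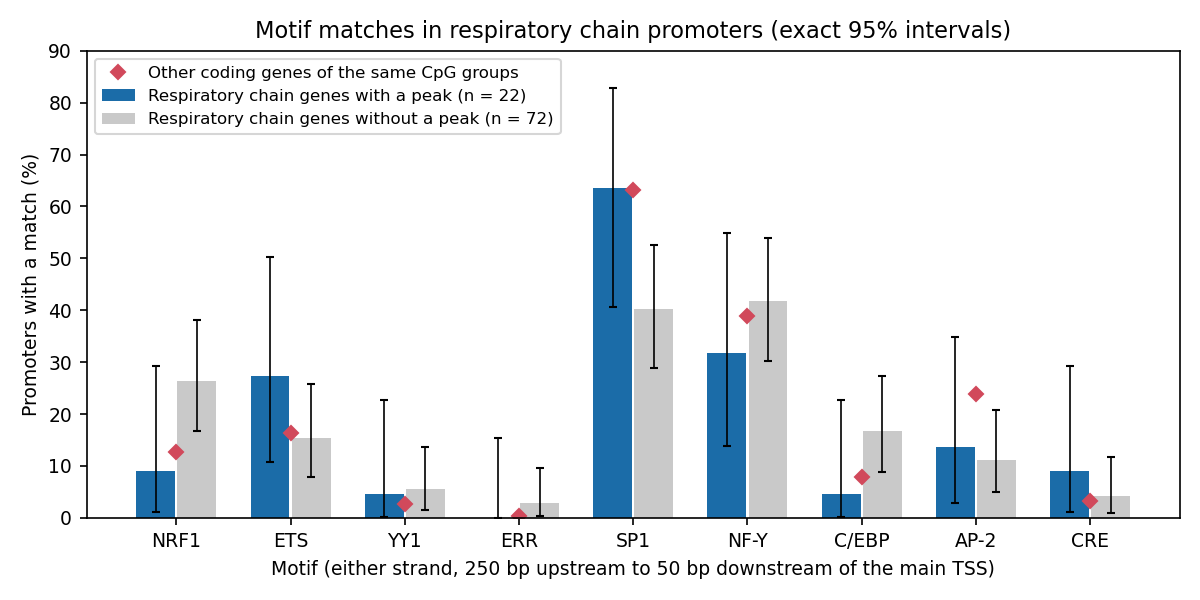
Percentage of respiratory chain promoters with a match to each of 9 motifs, in members with a TET2 peak (n = 22, blue) and without (n = 72, grey), with exact 95% intervals, and in other coding genes of the same CpG groups (diamonds). NRF1 stands at 9.09% with and 26.4% without a peak and SP1 at 63.6% and 40.3%, and the intervals of blue and grey bars overlap for every motif.

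Many respiratory chain genes have processed copies elsewhere in the genome, to which short reads can also align. The 400 bp around the main TSS had more than 1 match in the genome, of at least 100 bp and 90% identity, for 5 of the 22 members with a peak (22.7%, 7.82 to 45.4%) and 11 of the 72 without (15.3%, 7.88 to 25.7%). With a peak these were Atp5f1, Cox5a and Cox7a2l with 2 matches each including their own, Ndufab1 with 3 and Atp5l with 4. The promoter with the most, Ndufa1 with 28, had no peak. How reads with several places were handled is not given in the sources used here, and its part in the counts was not tested.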

How the data were processed

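The authors trimmed reads with NGS QC Toolkit, aligned them with bowtie1 and called peaks with MACS2 (2.1.0 per the labels' processing notes) against the input. The deposited list gives each peak's interval and, by the authors' caller, its −log10 p, used here only to describe, rank and filter. The column has no header and was read as −log10 p from its place in the study's peak table. In it 2182 of 14103 peaks stand below 5, looser than the p-value setting that the study states, so the cutoff behind the list is not known. The study gives its sequencing yield as a data volume, not as reads for each library. The notes name mm10, the methods GRCm39, and the reporting summary both GRCh38 and GRCm39. All 14098 peaks on nuclear chromosomes fit GRCm38, with 0 past a chromosome end and 0 midpoints in assembly gaps. The check was not run on GRCm39, so it does not by itself settle the build. TSSs came from GENCODE M21, and printed promoters from RefSeq GRCm38.p6, which had an entry for 76 of 93 member symbols. Read counts and the input library by itself were not analysed here.

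The members and all lists were chosen with earlier results of these data known. Named were every member with a promoter peak, core subunits, isoforms used in few tissues, and other pathway genes with a peak. Uqcr10 was also on the list of names, and Cyc1, Ndufa4, Ndufa7, Uqcrh and genes at the ends of a range were named after their values were seen. A few items covered by these rules are not reported here. Intervals are exact 95% binomial, except for the approximate 95% interval of the CpG-standardised share, which rests on its standard error. That share averages 20 groups of equal size. No test was made between groups, since each group is 1 library. Alternatives changed the TSS window, peak placement, TSS set, −log10 p threshold, CpG measure and motif window. The tools were blastn 2.17.0, matplotlib 3.10.9, pysam 0.24.0 and scipy 1.17.1 with pandas 2.3.3 and numpy 2.4.6 under Python 3.11.15, and scripts were tested on simulated data.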

Additional observations from a re-analysis of the deposited data

How the results depend on the processing

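Of 55 alternative settings, 34 left the value within its counting interval or spread and 21 moved it, 13 of them among the 18 for motif shares. The share of respiratory chain genes with a promoter peak moved to 13.8% at a −log10 p of at least 7 and 5.32% at 10 or more, and that of complex I to 6.52% at 7 or more, since fewer peaks are counted. The CpG-standardised share of other coding genes moved to 16.3% at 7 or more, to 38.1% within 3 kb, to 32.6% when the number of TSS clusters was held as well and to 27.9% by GC content, where the cause was not tested. The median offset moved to 197 bp when measured from the main TSS. The share of the members was under the CpG-standardised share in 10 of 11 settings, the exception being the threshold of 10. Without the overlapping second Atp5o record, a setting added after seeing the data, it was 23.7%. No paired analysis was possible because the results come from no test and the TET2 library is single. Reads for each library are not known, so a gene without a peak may hold TET2 below the level the list can show, and classes of fewer than 10 genes have intervals too wide to rank.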

Other observations

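Among 83 other genes that serve the respiratory chain, 29 had a promoter peak (34.9%, 24.8 to 46.2%), against 35.1% of other coding genes after CpG standardisation. Of 11 nuclear regulators of these genes 6 did (54.5%, 23.4 to 83.3%, CpG-standardised share 30.6%, inside the interval): Gabpa with a −log10 p of 8.32 on the peak it shares with Atp5j, Esrrb with 8.11, Gabpb1 with 6.90, Yy1 with 6.28, Esrrg with 5.59 and Ppargc1b, a coactivator, with 5.11. Ppargc1a, Pprc1, Nrf1, Gabpb2 and Esrra had none. Of 11 genes that copy or transcribe mitochondrial DNA 5 did (45.5%, 16.7 to 76.6%), near the CpG-standardised 39.4%. Tfam, which packages mitochondrial DNA and starts its transcription, had 13.7, Tfb1m 7.05, the helicase gene Twnk 5.54, Mterf3 5.13 and Tfb2m 3.86.

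Of 20 genes for the assembly of complex IV and its supply of copper and haem 5 had a peak (interval 8.66 to 49.1%), with −log10 p values of 8.28 at Pet117, 6.63 at Coa5, 6.47 at the copper chaperone gene Sco1, 6.21 at Cox11 and 4.12 at Coa6. Of 16 assembly genes of the other complexes 5 had one (31.2%, 11.0 to 58.7%), against 34.6% after CpG standardisation. Their values were 9.02 at Atpaf1, 7.63 at Tmem126b, 7.16 at Timmdc1, 6.47 at Atpaf2 and 6.06 at Acad9. Of 13 genes of coenzyme Q synthesis 4 had one (30.8%, 9.09 to 61.4%), against 38.4% after CpG standardisation. Their values were 10.2 at the methyltransferase gene Coq5, 7.34 at Coq8a, 6.26 at Coq10a and 5.74 at Coq10b. Cyc1, cytochrome c1 of complex III, had 10.3, and Cycs and Cyct had no peak. Of 9 carrier and uncoupling genes 3 had one (33.3%, 7.49 to 70.1%), against 29.1% after CpG standardisation. Their values were 6.01 at the ADP/ATP carrier gene Slc25a4 and 5.07 at both Vdac2 and Ucp1, the uncoupling protein of brown fat. Each of these standardised shares lies inside its interval.

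Other large families of genes used in every cell gave shares beside the 23.4% of the respiratory chain: 30.8% (20.8 to 42.2%) of 78 mitochondrial ribosomal protein genes, 25.3% (16.2 to 36.4%) of 79 cytosolic ribosomal protein genes and 32.5% (18.6 to 49.1%) of 40 proteasome subunit genes. Their CpG-standardised shares were 36.4%, 38.3% and 35.0%, and the 4 intervals overlap. No share was tested against another.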
